A study of Mus musculus with 16 samples.

Results

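Expression of 10 heat shock genes was followed in 2 tissues of mice exposed to bright light. The genes were Hsf1, Hspb1, Hspb8, Hspa8, Hspa4l, Hsph1, Hsp90aa1, Dnajb1, Dnaja1 and Bag3, picked by symbol. Each was read from the transcript cluster (the array's unit of measurement) that carried its symbol alone, taking the brightest by its mean over all arrays. Hsf1, the transcription factor of the heat shock response, was not analysed here, because none of its signal could be assigned by this rule, so 9 of the 10 genes were measured among 19938 genes in all.

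The study measured mRNA in isolated retinal pigment epithelium (RPE), a sheet of cells that supports the photoreceptors from behind, and in the neurosensory retina (NSR), made up of photoreceptors, inner neurons and glia. All 8 mice were male Balb/cJ, an albino strain, aged 10 weeks, and both tissues of each mouse were hybridised to an array of their own. The 4 groups were light-exposed RPE, control RPE, light-exposed NSR and control NSR, with 4 mice in each. Light-exposed mice spent 18 hours under cool white fluorescent lamps at 10000 lux, and tissue was taken 4 hours later, while control mice stayed on a regular 12-hour cycle, so that bright light and the altered light schedule cannot be told apart. Values are RMA-summarised expression values on a log2 scale as deposited, on which a difference of 1 is a doubling of signal, and the number of arrays limits their precision.

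Heat shock proteins are chaperones that hold, refold or hand over misfolded proteins. Unfolded protein frees HSF1 from chaperones that hold it inactive, and HSF1 then binds heat shock elements in the promoters of chaperone genes. Within the cytosolic machine, J-domain proteins deliver clients to Hsp70, nucleotide exchange factors such as Hsp110 and the BAG proteins release them, and Hsp90 takes over the late folding of kinases and receptors. BAG3 together with the small heat shock protein HSPB8 passes clients that cannot be refolded to autophagy. Photoreceptors renew their outer segments every day and the RPE digests the shed tips, which makes both tissues heavy users of protein quality control.

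RPE and rod marker genes fitted the labelled tissues, and RPE arrays carried signal of other cell types as well. The median of 12 RPE markers was 11.30 to 11.60 on light-exposed and 12.21 to 12.30 on control RPE arrays, against 5.76 to 6.18 on light-exposed and 5.99 to 6.34 on control NSR arrays. The median of 8 measured rod markers was 11.52 to 11.82 in light-exposed and 12.14 to 12.22 in control NSR, and RPE arrays still carried rod signal, at 7.32 to 8.60 after light and 7.82 to 8.38 in controls. Light moved both lists: 8 of 12 RPE markers were called lower in light-exposed RPE, and 8 of 8 rod markers in light-exposed NSR. Over all genes, light called 8.53% lower in the RPE and 6.24% lower in the NSR. In bulk tissue, fewer cells of a type and less RNA per cell cannot be told apart. Control RPE was called higher than control NSR for 6 of 6 fibroblast, 6 of 9 microglia and macrophage and 5 of 7 muscle markers. It was called lower for 1 muscle marker, and of 6 endothelial markers 2 were higher and 2 lower. Over all genes 30.8% were called higher and 24.2% lower in that comparison. Among the RPE arrays, 3 stood apart from their group. Light-exposed RPE of mouse 2 had a corneal marker median of 9.46, against 6.16 to 6.42 on the other light-exposed RPE arrays. That list held Krt12, Krt5, Krt14, Aldh3a1, Krt15 and Kera. Of these, Kera alone was lowest on that array, at 5.12 against 5.76 to 7.81. The same array had a Muller glia and astrocyte marker median of 9.78, against 8.67 to 8.99. Light-exposed RPE of mouse 1 had the rod median of 8.60, against 7.32 to 7.61 on the others of its group, and control RPE of mouse 2 had a lens marker median of 7.07, against 6.29 to 6.44. For the 9 measured heat shock genes, light responses that gain or lose their call without these 3 arrays are given both ways below. Genes of other lists are given with all arrays only. The part of any of these other cell types in the results was not tested otherwise. A list of 11 immediate early genes, which respond to handling and stress, had a median of 8.08 in control RPE of mouse 1, against 8.83 to 9.02 on the other control RPE arrays, and that array also gave the lowest control RPE values of Bag3, Hspb8 and Hsph1.

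Heat shock elements are inverted repeats of a 5-base unit, and their closest forms are the letters GAANNTTC and TTCNNGAA, each of which reads the same on both strands. Where the forms overlap, 3 units stand in a row. The RefSeq promoter table (GRCm38.p6) held 11 promoters of 7 of these genes, each reaching from 250 bases before to 50 bases after a start site. At least 1 of the forms was found for 5 of the 7 genes, Hspb1, Hspb8, Hsph1, Dnaja1 and Bag3, and neither was found in the windows of Dnajb1 and Hspa4l. Either form was present in 15.1% of the 32851 promoters of the table and for 17.0% of its 27025 genes, and 3 units in a row in 0.603% of promoters and for 0.662% of genes. The windows below show every match in these genes, with the repeat in capitals.
Hspb1, chr5:135887791-135887820, plus strand, repeat beginning 117 bases before the start: cttcaacaagaGAAGTTTCcagatgggggc
Hspb1, chr5:135887811-135887840, plus strand, 97 bases before the start: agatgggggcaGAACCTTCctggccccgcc
Bag3, chr7:128523603-128523632, plus strand, 43 bases after the start: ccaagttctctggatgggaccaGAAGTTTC
Hspb8, chr5:116422844-116422873, minus strand, 3 bases after the start: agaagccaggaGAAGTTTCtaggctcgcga
Dnaja1, chr4:40722333-40722362, plus strand, 124 bases before the start: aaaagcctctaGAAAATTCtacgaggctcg
Hsph1, chr5:149636351-149636380, minus strand, 33 bases before the start of its first promoter and 54 before that of its second: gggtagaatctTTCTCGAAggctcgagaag
Hsph1, chr5:149636277-149636306, minus strand, 16 bases after the start of its second promoter: tgcagaTTCTGGAAAGTTCtcctcagtagg
The last Hsph1 window holds 3 units in a row, a run that both promoters of Hsph1 contain and that was found for no other of the 7 genes. The letters of the repeat are identical in the first Hspb1 window and those of Bag3 and Hspb8. A match is a description of the letters and not evidence of binding.

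After light, more of the heat shock genes fell than rose in the RPE, while those that changed in the NSR rose. In the RPE, 1 of the 9 genes, Bag3, was higher after light and 4, Dnaja1, Hspa8, Hspa4l and Hsp90aa1, were lower, at a limma adjusted p under 0.05. Over all genes 9.08% were called higher and 8.53% lower in that comparison. In the NSR, 3 of the 9, Bag3, Dnajb1 and Hspb1, were higher and 0 were lower, where 8.87% and 6.24% of all genes were called. In limma's test without adjustment, a p under 0.05 in the NSR was also reached by Hspb8 (0.0129) and Hsph1 (0.019), both higher. Hspa4l (0.0313) reached it as the 1 lower gene. The share of all genes at that unadjusted p is not given here. The median log2 difference of the 9 genes was -0.28 in the RPE, where that of all genes was -0.01, and 0.28 in the NSR, where that of all genes was -0.02. Bag3 was the only one of the 9 that passed the test in both tissues.

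**Figure D1:**
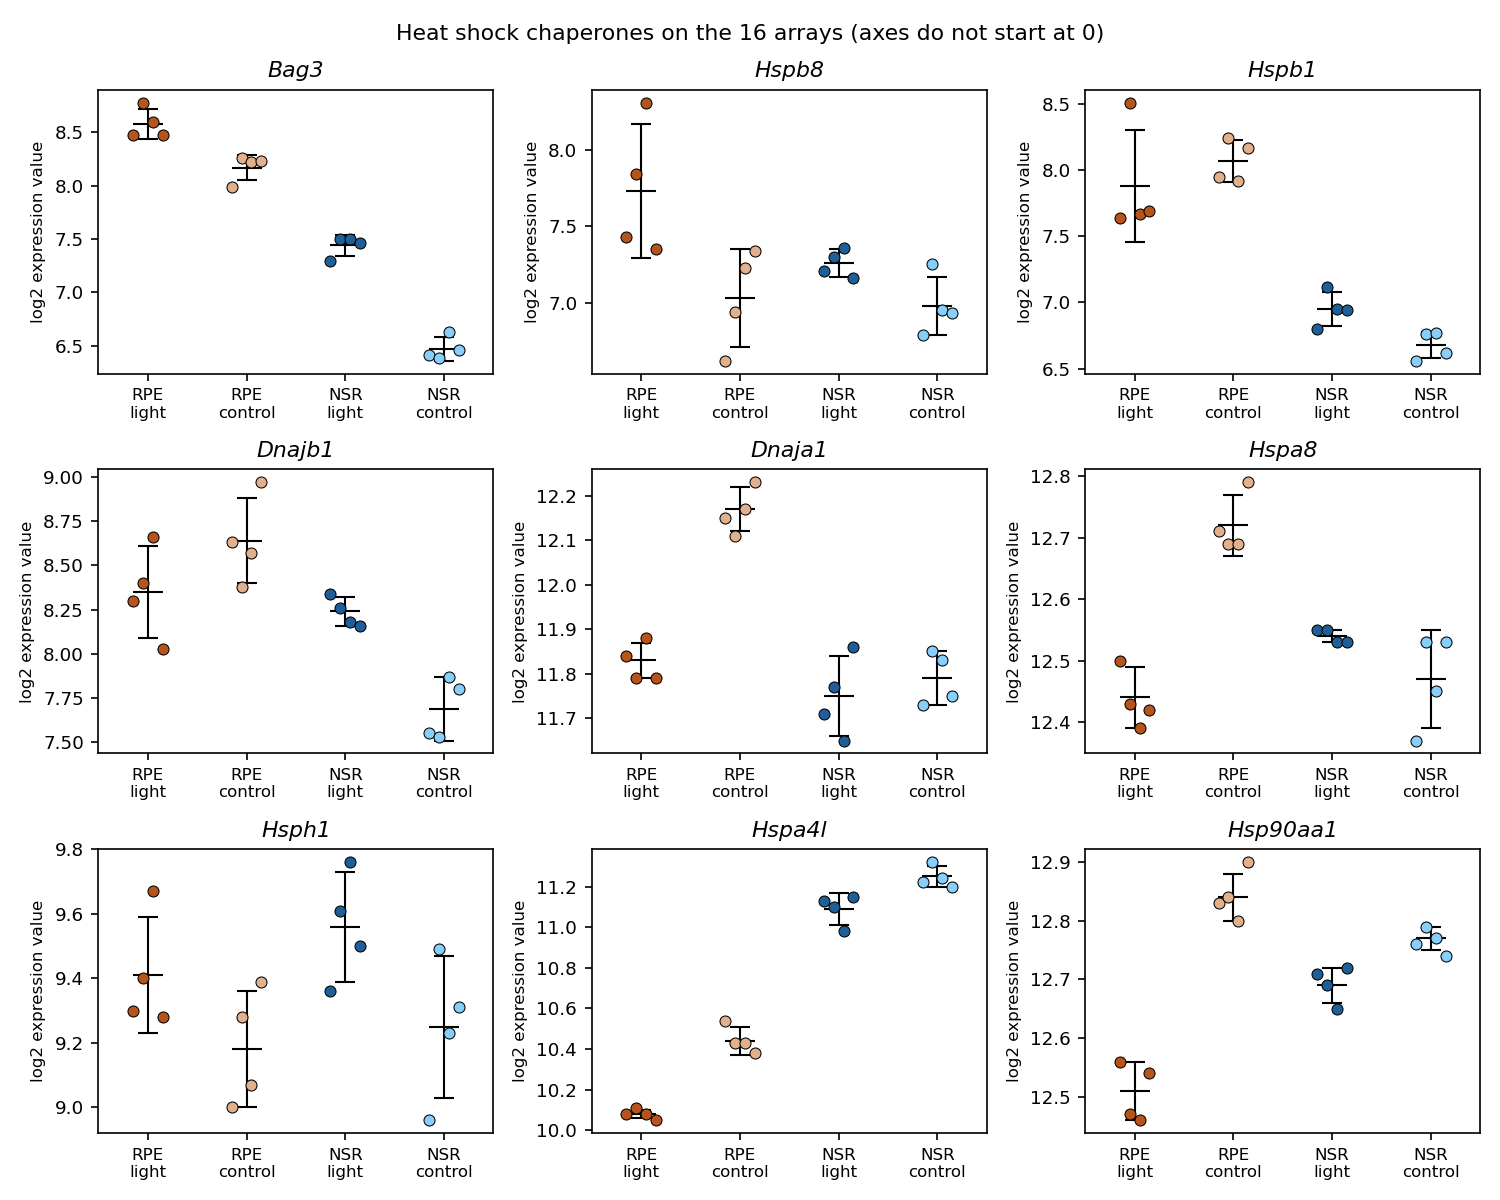
Log2 expression values of the 9 measured heat shock genes (vertical axes, which do not start at 0) on every array, for light-exposed RPE, control RPE, light-exposed NSR and control NSR. Points are single mice, long bars are group means and whiskers 1 SD (n = 4). For Bag3 the 4 groups do not overlap, with RPE above NSR and light above control in each tissue, and for Hsp90aa1, Hspa8, Hspa4l and Dnaja1 every light-exposed RPE array lies below every control RPE array.

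Bag3 encodes the co-chaperone that couples Hsp70 and HSPB8 to selective autophagy. In the RPE it read 8.48, 8.78, 8.60 and 8.48 on the light-exposed arrays, against 7.99, 8.26, 8.22 and 8.23 on the control arrays. In the NSR it read 7.29, 7.50, 7.50 and 7.46 after light, against 6.41, 6.39, 6.63 and 6.46 in controls. Light-exposed arrays lay above all control arrays in both tissues, which held for no other of the 9 genes. Over all genes, this was so for 11.3% in the RPE and 10.7% in the NSR, and among the 9 genes for 2 in the RPE and 3 in the NSR. The rise was 1.95-fold in the NSR (log2 difference 0.97, SE 0.08, adjusted p = 4.51e-06) and 1.33-fold in the RPE (0.41, SE 0.09, adjusted p = 0.00999). Without the 3 RPE arrays that stood apart, the RPE difference of Bag3 was 0.39 with an adjusted p of 0.0658. Without control RPE of mouse 1, the array with the low immediate early median, it was 0.35 (adjusted p = 0.0265). The NSR value ranged from 0.94 to 1.02 when each array was left out in turn.

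Hspb8 encodes the small heat shock protein that works with BAG3. Light-exposed RPE read 7.43, 7.84, 8.31 and 7.35, against 6.62, 6.94, 7.23 and 7.34 in control RPE. Every light-exposed value lay above every control value, though the closest pair, 7.35 and 7.34, nearly met, and both groups were widely spread. The difference of 0.70 (1.62-fold, SE 0.22) had an adjusted p of 0.054 and was not called. It passed the test without light-exposed RPE of mouse 1 (adjusted p = 0.0463), without light-exposed RPE of mouse 4 (0.0358), with the dimmest 25% of genes left out (0.0447), with the spread estimated over all 16 arrays (0.00893), and with the replicate number as a block (0.0319). Under the other 12 of 17 alternatives it was not called, with an adjusted p of up to 0.185, reached without the 3 RPE arrays that stood apart (difference 0.77, SE 0.31). Without control RPE of mouse 1 the difference was 0.56 (adjusted p = 0.138). In the NSR Hspb8 read 7.21, 7.30, 7.36 and 7.16 after light, against 6.79, 7.25, 6.95 and 6.93 in controls. These groups overlapped through 1 control array, that of mouse 2, and the difference of 0.28 had an adjusted p of 0.0726, or 0.011 without that array.

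Hspb1 encodes Hsp27, a small heat shock protein that binds unfolded protein and protects actin filaments. Light-exposed NSR arrays read 6.80, 7.12, 6.95 and 6.94, against 6.56, 6.76, 6.77 and 6.62 on control NSR arrays, and the groups did not overlap. The difference of 0.28 (1.21-fold, SE 0.08, adjusted p = 0.0386) sat close to the threshold. Leaving out single NSR arrays ended the call for 6 of 8 arrays, namely those of control mice 1, 2 and 4 and of light-exposed mice 2, 3 and 4, with adjusted p between 0.0506 and 0.107. It also ended with arrays centred on their median (0.0561), with quantile normalization (0.0611) and in the fit over all 16 arrays (0.257). In the RPE Hspb1 read 7.64, 8.51, 7.67 and 7.69 after light, against 7.95, 8.24, 7.92 and 8.17 in controls. The high light-exposed value came from mouse 2, the array with the high corneal and glia marker medians. The other light-exposed arrays lay below all controls. With the array of mouse 2 the difference was -0.19 (adjusted p = 0.578), and without it -0.40 (adjusted p = 0.018). Without all 3 RPE arrays that stood apart it was -0.33 and not called (adjusted p = 0.0985).

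Dnajb1 encodes Hsp40, the stress-inducible J-domain protein that stimulates the ATPase of Hsp70. It was the NSR gene with the next largest rise after Bag3 among the 9. Light-exposed NSR read 8.34, 8.26, 8.18 and 8.16, against 7.55, 7.53, 7.87 and 7.80 in control NSR. The groups did not overlap, and the difference was 0.55 (1.47-fold, SE 0.09, adjusted p = 0.00116). In the RPE Dnajb1 read 8.30, 8.40, 8.66 and 8.03 after light, against 8.63, 8.38, 8.57 and 8.97 in controls. These groups overlapped, and the difference of -0.29 was not called (95% interval -0.62 to 0.04, adjusted p = 0.247).

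Dnaja1 encodes a constitutive J-domain partner of Hsc70 that carries a lipid anchor. Light-exposed RPE read 11.84, 11.79, 11.88 and 11.79, against 12.15, 12.11, 12.17 and 12.23 in control RPE. Every light-exposed array lay below every control array. Dnaja1 fell by 0.34 on the log2 scale, a 1.27-fold lower signal in light-exposed RPE (SE 0.06, adjusted p = 0.00248). In the NSR it read 11.71, 11.77, 11.65 and 11.86 after light, against 11.73, 11.85, 11.83 and 11.75 in controls, and the groups lay across one another. The NSR difference was -0.04, with a 95% interval of -0.19 to 0.10 (adjusted p = 0.717).

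Hspa8 encodes Hsc70, the constitutive cytosolic Hsp70. Light-exposed RPE read 12.50, 12.43, 12.39 and 12.42, against 12.71, 12.69, 12.69 and 12.79 in control RPE. The groups did not overlap, and Hspa8 fell by 0.28 on the log2 scale (1.22-fold, SE 0.06, adjusted p = 0.00677). The fall was 0.32 with an adjusted p of 0.0575 without the 3 RPE arrays that stood apart. In the NSR Hspa8 read 12.55, 12.55, 12.53 and 12.53 after light, against 12.37, 12.53, 12.45 and 12.53 in controls. The NSR difference of 0.07 was not called (adjusted p = 0.499), and it was negative in the dimmest of the clusters of Hspa8 described below.

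Hspa4l and Hsph1 encode Hsp110-type chaperones, which exchange nucleotide on Hsp70. Hspa4l read 10.08, 10.11, 10.08 and 10.05 in light-exposed RPE, against 10.54, 10.43, 10.43 and 10.38 in control RPE. It fell by 0.36 on the log2 scale in the RPE (1.29-fold, SE 0.06, adjusted p = 0.00202), with no overlap between the groups. Light-exposed NSR read 11.13, 11.10, 10.98 and 11.15, against 11.22, 11.32, 11.24 and 11.20 in control NSR. Here too every light-exposed array lay below every control array, but the difference of -0.16 was not called (adjusted p = 0.131). A variance prior that follows the expression level gave it an adjusted p of 0.0235.

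Hsph1 encodes Hsp105 and was the gene with the run of 3 heat shock units above. Light-exposed RPE read 9.30, 9.40, 9.67 and 9.28, against 9.00, 9.28, 9.07 and 9.39 in control RPE. Light-exposed NSR read 9.36, 9.61, 9.76 and 9.50, against 8.96, 9.49, 9.23 and 9.31 in control NSR. The groups overlapped in both tissues. The difference was 0.23 in the RPE (95% interval -0.02 to 0.48, adjusted p = 0.228) and 0.31 in the NSR (0.06 to 0.56, adjusted p = 0.0941). Without control RPE of mouse 1 the RPE difference was 0.165 (adjusted p = 0.446). Without the control NSR array of mouse 2 the NSR difference was 0.39 with an adjusted p of 0.0453.

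Hspa1a, an inducible Hsp70 that is near-identical to Hspa1b and may share its signal, was not called in either tissue. It read 7.98, 7.91, 8.30 and 8.14 in light-exposed RPE, against 8.29, 8.09, 8.63 and 9.27 in control RPE, a difference of -0.49 (adjusted p = 0.18). NSR arrays read 8.15, 8.17, 8.20 and 8.45 after light, against 8.39, 8.56, 8.50 and 8.43 in controls, a difference of -0.23 (adjusted p = 0.0782). Both differences were negative while those of Bag3 were positive, and the groups of Hspa1a overlapped in both tissues.

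Hsp90aa1 encodes the stress-responsive cytosolic Hsp90. Light-exposed RPE read 12.56, 12.47, 12.46 and 12.54, against 12.83, 12.84, 12.80 and 12.90 in control RPE. The groups did not overlap, and Hsp90aa1 fell by 0.33 on the log2 scale (1.26-fold, SE 0.06, adjusted p = 0.00279). The adjusted p was 0.05, and the call ended, without the 3 RPE arrays that stood apart, with a fall of similar size at 0.35. In the NSR it read 12.71, 12.69, 12.65 and 12.72 after light, against 12.76, 12.79, 12.77 and 12.74 in controls. The NSR arrays did not overlap either, but the difference of -0.08 was not called (adjusted p = 0.418) and was 0.003 after quantile normalization. Groups without overlap and with light lower made up 10.9% of all genes in the RPE and 9.97% in the NSR. Among the 9 genes they numbered 4 in the RPE and 2 in the NSR.

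Hspa8 and Hsp90aa1 each had 3 clusters with their symbol alone, and Dnaja1 and Hspb1 had 2, so that copies of near-identical sequence may share signal with these genes. In the array's numbering, the dimmest Hspa8 cluster stands close to those that Hspa8 shares with small nucleolar RNA genes, given at the end. The dimmer Dnaja1 cluster stands close to the one shared with Mir207, and the brightest clusters of both genes stand elsewhere. Which cluster reads the gene itself was not tested. The clusters of a gene mostly moved together. In the RPE the difference was -0.28, -0.29 and -0.30 over the clusters of Hspa8, from the brightest to the dimmest, and -0.33, -0.34 and -0.39 over those of Hsp90aa1. It was -0.34 and -0.43 for Dnaja1 and -0.19 and -0.23 for Hspb1. In each of the 3 Hspa8 and 3 Hsp90aa1 clusters the light-exposed RPE arrays lay below all control RPE arrays. In the NSR the Hspa8 clusters went apart, with differences of 0.07, 0.09 and -0.19.

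**Figure D2:**
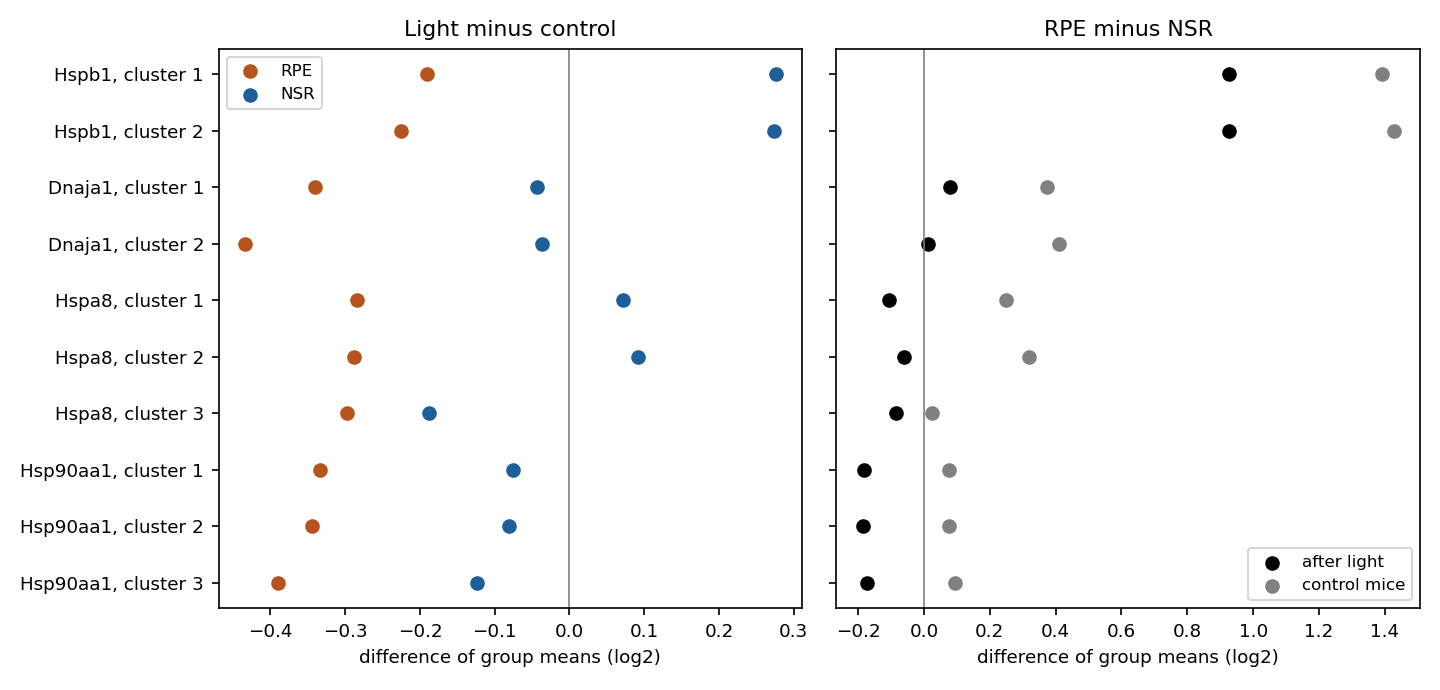
Difference of group means on the log2 scale (horizontal axes) for each single-symbol cluster of Hspb1, Dnaja1, Hspa8 and Hsp90aa1, numbered from the brightest. The left plot gives light minus control in RPE and NSR and the right plot RPE minus NSR after light and in control mice. The RPE light differences are negative in all 10 clusters, between -0.43 and -0.19, and the dimmest Hspa8 cluster differs in sign from the other Hspa8 clusters for light in the NSR.

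Whether light acted differently in the 2 tissues was tested as the difference of the responses, RPE response minus NSR response, over all 16 arrays. Of the 9 genes, 5 responded lower in the RPE and 0 higher, where 8.05% and 5.16% of all genes were called. Of the 11 immediate early genes, 8 responded lower in the RPE and 0 higher. Dnajb1 differed the most among the 9, by -0.84 (1.79-fold, SE 0.18, adjusted p = 0.00431), having risen in the NSR and not been called in the RPE. Bag3 differed by -0.56 (SE 0.12, adjusted p = 0.00402), having risen in both tissues and by less in the RPE. Hspa8 differed by -0.35 (SE 0.08, adjusted p = 0.00409). The dimmest cluster of Hspa8 gave -0.11 (adjusted p = 0.706).

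Hsp90aa1 and Dnaja1 differed by -0.26 and -0.30, with adjusted p of 0.0206 and 0.0236. Both tissues came from the same mice, and with the mouse as a block 3 of the 9 genes stayed past the threshold: the adjusted p became 0.072 for Hsp90aa1 and 0.085 for Dnaja1. Without the 3 RPE arrays that stood apart these were 0.0696 and 0.0775. The Dnaja1 call also ended without the control NSR array of mouse 1 (0.0504) and without the control RPE array of mouse 4 (0.0511). Hspb1 was not called with all arrays (-0.47, adjusted p = 0.181) but had a difference of -0.68 (adjusted p = 0.00133) without the light-exposed RPE array of mouse 2, and of -0.61 (adjusted p = 0.00755) without the 3 arrays. No difference was called for Hspa4l (-0.20, 95% interval -0.37 to -0.03, adjusted p = 0.115), Hsph1 (-0.08, -0.45 to 0.28, adjusted p = 0.825) or Hspb8 (0.42, -0.11 to 0.96, adjusted p = 0.338). Hspb8 was the only gene of the 9 with a positive difference.

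**Figure D3:**
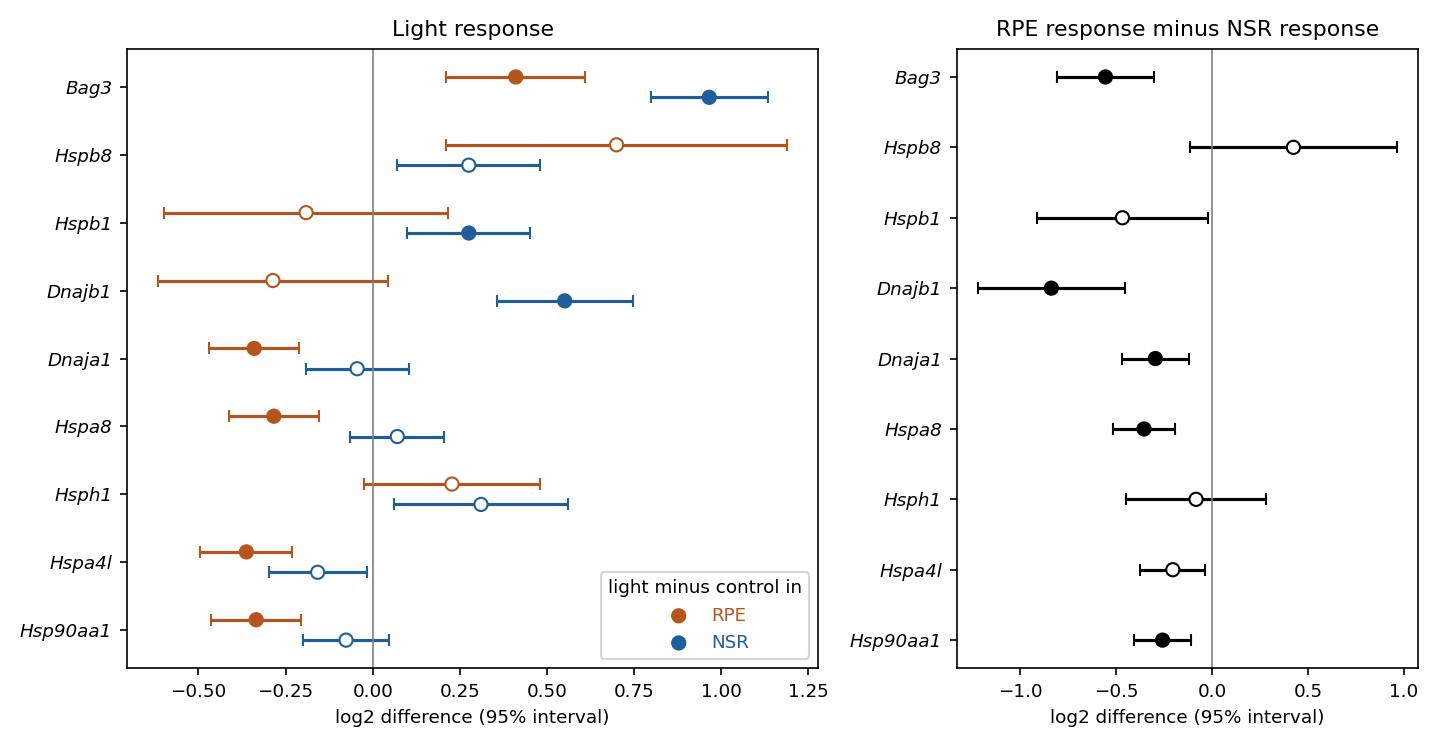
Log2 differences with 95% intervals for the 9 heat shock genes. The left plot gives light minus control in the RPE and in the NSR, the right plot the RPE response minus the NSR response, and filled points passed the test at an adjusted p under 0.05 while open points did not. Bag3 is filled in both tissues, Dnajb1 and Hspb1 in the NSR, Dnaja1, Hspa8, Hspa4l and Hsp90aa1 in the RPE, and 8 of the 9 differences on the right are negative.

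The levels of these genes differed between the tissues as well. In control mice, 5 of the 9 genes were higher in RPE than in NSR and 1 was lower, in a comparison that called 30.8% of all genes higher and 24.2% lower. After quantile normalization 6 were again called, 3 higher and 3 lower. After light, 3 were higher in RPE and 2 lower, where 34.4% and 23.6% of all genes were called. The median difference of all genes was 0.04 in control mice and 0.08 after light, and it moved to 0.19 and 0.20 when each array was centred on its median over all clusters, so that small tissue differences depend on the scaling.

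Bag3 was 3.25-fold higher in control RPE than in control NSR (log2 difference 1.70, SE 0.08, adjusted p = 6.03e-12) and 2.21-fold higher in light-exposed RPE than in light-exposed NSR (1.15, adjusted p = 1.62e-09). Its group means stood at 8.58 ± 0.14 in light-exposed RPE, 8.17 ± 0.12 in control RPE, 7.44 ± 0.10 in light-exposed NSR and 6.47 ± 0.11 in control NSR (SD, n = 4). The lowest control RPE array, at 7.99, was still above the highest light-exposed NSR array, at 7.50. Hspb1 was 2.63-fold higher in RPE in control mice (1.39, SE 0.15, adjusted p = 2.33e-07) and 1.90-fold higher after light (0.93, adjusted p = 3.46e-05). Light-exposed and control RPE overlapped for Hspb1, and both lay above light-exposed NSR, which lay above control NSR.

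Dnajb1 was 1.93-fold higher in RPE in control mice (0.95, SE 0.13, adjusted p = 4.31e-06) but not called after light (0.11, 95% interval -0.16 to 0.38, adjusted p = 0.477). Its means were 8.35 ± 0.26 in light-exposed RPE, 8.64 ± 0.24 in control RPE, 8.24 ± 0.08 in light-exposed NSR and 7.69 ± 0.18 in control NSR (SD, n = 4), and of these only control NSR, the lowest, lay clear of the others. Beside these 3 genes, 10 of the 11 immediate early genes were higher in control RPE than in control NSR: the median of that list was 8.08 to 9.02 in control RPE and 6.83 to 7.07 in control NSR. After light it was 8.08 to 8.59 in RPE and 8.02 to 8.65 in NSR, and its part in the chaperone levels was not tested.

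Hspa4l was the one gene lower in control RPE, by 0.80 on the log2 scale (SE 0.06, adjusted p = 8.36e-10), and after light it was 2.01-fold lower in RPE (-1.01, adjusted p = 4.54e-11). Its 4 groups did not overlap, and from lowest to highest stood light-exposed RPE at 10.08 ± 0.02, control RPE at 10.44 ± 0.07, light-exposed NSR at 11.09 ± 0.08 and control NSR at 11.25 ± 0.05 (SD, n = 4). Hspb8 did not differ by the test between control tissues (0.05, 95% interval -0.33 to 0.43, adjusted p = 0.838), and was called higher in RPE after light (0.48, adjusted p = 0.0319) although the groups overlapped. That call ended without any of 4 single arrays, light-exposed NSR of mouse 1 or 4 and light-exposed RPE of mouse 2 or 3, with adjusted p between 0.0633 and 0.135. The lowest difference among these was 0.28, without light-exposed RPE of mouse 3.

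The tissue differences of the abundant chaperones were small and followed the scaling. Dnaja1 was higher in RPE in control mice by 0.37 (adjusted p = 2.41e-05), but by 0.10 (adjusted p = 0.123) after quantile normalization. After light its difference of 0.08 was not called (adjusted p = 0.266), became -0.16 (0.0156) after quantile normalization and 0.205 (0.00657) when arrays were centred over all clusters. Hspa8 was higher in control RPE by 0.25 (adjusted p = 0.000674), a call lost with quantile normalization (0.03, adjusted p = 0.656) and in its dimmest cluster (0.03, adjusted p = 0.853). After light Hspa8 had a difference of -0.11 (adjusted p = 0.107), which was -0.305 (7.33e-05) after quantile normalization and 0.02 when centred over all clusters.

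Hsp90aa1 was not called between control tissues (0.08, adjusted p = 0.219), with values of -0.12 (0.0473) after quantile normalization and 0.22 (0.00105) when centred over all clusters. After light it was lower in RPE by the test (-0.18, SE 0.05, adjusted p = 0.00457), and not when centred over all clusters (-0.055, adjusted p = 0.329). Hsph1 was not called in control mice (-0.06, adjusted p = 0.697) or after light (-0.15, adjusted p = 0.321), and was called lower in RPE in both comparisons after quantile normalization (-0.28 and -0.32, adjusted p = 0.0463 and 0.0251).

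Other chaperone families were read from lists that leave the 9 genes out. In the RPE the mitochondrial chaperones had 6 of 10 measured genes higher after light and 0 lower, the endoplasmic reticulum chaperones 7 of 14 higher and 0 lower, and Hsp90 with its co-chaperones 6 of 14 higher and 1 lower. These shares stood beside 9.08% of all genes called higher and 8.53% called lower, and were not tested further. Trap1, the mitochondrial Hsp90, rose 1.46-fold in the RPE (log2 difference 0.55, SE 0.06, adjusted p = 0.00016), and Hspa9, the mitochondrial Hsp70, rose 1.40-fold (0.48, adjusted p = 0.0009). In the endoplasmic reticulum, the nucleotide exchange factor Hyou1 rose 1.48-fold (0.57, SE 0.07, adjusted p = 0.000641), and Creld2, a protein induced by endoplasmic reticulum stress, rose 1.44-fold (0.53, adjusted p = 0.00108). Hyou1 read 9.29, 9.52, 9.31 and 9.25 in light-exposed RPE, against 8.74, 8.70, 8.86 and 8.81 in control RPE, so that the arrays did not overlap. Among Hsp90 co-chaperones, Pih1d1 rose by 0.55 (adjusted p = 0.000191), and the immunophilins Fkbp5 and Fkbp4 by 0.49 and 0.40 (adjusted p = 0.0208 and 0.00145). Fkbp4 stands in the list of heat shock regulators as well and is counted in both.

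In the NSR fewer of these genes passed the test. Mitochondrial chaperones had 1 of 10 higher, Hspa9 (0.38, adjusted p = 0.00278), and Hsp90 co-chaperones 1 of 14, Pih1d1 (0.46, adjusted p = 0.0177). Endoplasmic reticulum chaperones had 5 of 14 higher and 1 lower, led by Dnajb9, a J-domain protein of the unfolded protein response (0.55, SE 0.07, adjusted p = 0.000142), and Pdia6, a disulphide isomerase (0.46, adjusted p = 0.00281). Background shares in the NSR were 8.87% higher and 6.24% lower. Whether the tissues differed was tested gene by gene: of these 3 lists, the difference of responses called 2 of 10, 2 of 14 and 2 of 14 genes higher in the RPE, and 0, 0 and 2 lower, in the order mitochondrial, Hsp90 and endoplasmic reticulum, where 5.16% and 8.05% of all genes were called.

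**Figure D4:**
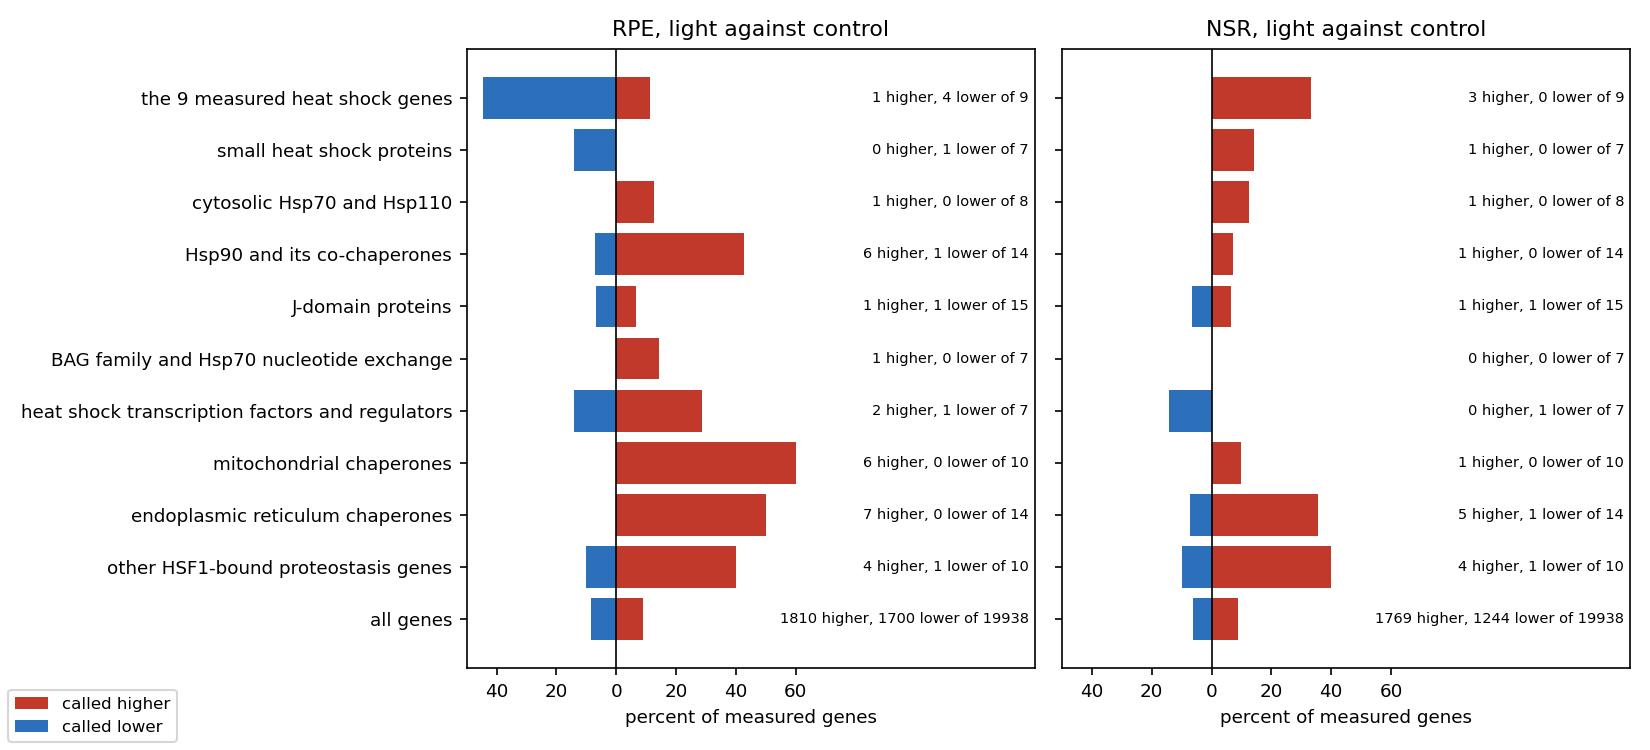
Share of measured genes, in percent, called higher (right of 0) or lower (left of 0) after light in the RPE and the NSR, for the 9 measured heat shock genes, 9 lists of other proteostasis genes and all genes. The counts stand beside the bars. Of the 9 heat shock genes 4 are lower in the RPE, while the mitochondrial list has 6 of 10 and the endoplasmic reticulum list 7 of 14 higher there.

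Of 7 other small heat shock proteins, 1 was higher in the NSR and 1 lower in the RPE. Over all genes, 9.08% were called higher and 8.53% lower in the RPE, and 8.87% and 6.24% in the NSR. Beside these shares, counts this small in short lists say little about a family. Cryab, which encodes alpha B-crystallin, read 10.49, 10.47, 10.66 and 10.28 in light-exposed NSR, against 9.40, 9.52, 9.42 and 9.59 in control NSR. It rose 1.99-fold (log2 difference 1.00, SE 0.08, adjusted p = 7.46e-06) with no overlap, close in size to Bag3. In the RPE Hspb2, a small heat shock protein of muscle, was lower (-0.30, adjusted p = 0.0268). Of 7 measured heat shock factors and regulators, the RPE had 2 higher, Fkbp4 among them, and 1 lower, the last being the deacetylase Sirt1 (-0.42, adjusted p = 0.00349), and the NSR had 0 higher and 1 lower. That gene was Hsf2, a heat shock transcription factor, which read 8.26, 8.14, 8.19 and 8.29 after light, against 8.53, 8.55, 8.69 and 8.71 in controls (-0.40, SE 0.07, adjusted p = 0.00182).

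Of 15 other J-domain proteins, 1 was higher and 1 lower in each tissue. The shares of all genes were 9.08% higher and 8.53% lower in the RPE, and 8.87% and 6.24% in the NSR. Dnajc2, a ribosome-bound J-domain protein, rose in both, by 0.52 in the RPE (adjusted p = 0.00208) and 0.38 in the NSR (adjusted p = 0.00252), while Dnaja4 was lower in the RPE (-0.36, adjusted p = 0.00316) and Dnajb14 in the NSR (-0.25, adjusted p = 0.0382). Among 8 measured genes of the Hsp70 and Hsp110 list, Hspa13 was the 1 called in the RPE (0.46, adjusted p = 0.00299) and Hspa4 the 1 called in the NSR (0.20, adjusted p = 0.0338). Hspa4 stands in the list of genes named as bound by HSF1 as well and is counted in both. Of 7 BAG family and Hsp70 exchange genes, Bag4 was higher in the RPE (0.28, adjusted p = 0.0131) and 0 were called in the NSR, where the largest difference was that of Stub1, a ubiquitin ligase (0.10, adjusted p = 0.387).

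Sqstm1, the autophagy receptor p62 that takes up cargo routed by BAG3, rose in both tissues. It read 10.19, 10.38, 10.41 and 10.28 in light-exposed RPE, against 9.64, 9.57, 9.58 and 9.63 in control RPE, a 1.64-fold rise (adjusted p = 9.07e-05). In the NSR it read 9.09, 9.34, 9.35 and 9.06 after light, against 8.31, 8.40, 8.40 and 8.34 in controls, a 1.80-fold rise (adjusted p = 1.95e-05). It belonged to a list of 10 measured proteostasis genes named as bound by HSF1, which was not checked in these data. In each tissue 4 of the 10 were higher and 1 lower. Over all genes, 9.08% were called higher and 8.53% lower in the RPE, and 8.87% and 6.24% in the NSR. Trim25, a ubiquitin ligase, led that list in the NSR with a 2.89-fold rise (1.53, SE 0.10, adjusted p = 1.11e-06), and Serpinh1, a collagen chaperone, was the one that fell in the RPE (-0.47, adjusted p = 0.00506).

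For Bag3, the only gene of the 9 called in both tissues, the genes with the most similar profile were taken over the 16 arrays after each tissue's mean was subtracted. They were Nme2, a nucleoside diphosphate kinase, with a Pearson correlation of 0.975, and Mitd1 and S100a6, each with 0.972. The 16 points share the light and control grouping, which such a correlation follows, and no test was made. Light differences were 0.54 in the RPE and 1.10 in the NSR for Nme2, 0.56 and 1.68 for Mitd1, and 1.26 and 3.62 for S100a6, a calcium-binding protein.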

How the data were processed

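The values are those the authors deposited, on a log2 scale, for 35556 transcript clusters of an Affymetrix mouse array. Per the submitters' processing notes, RMA and Partek 6.6 were used; the log2 scale was inferred from the range of 2.20 to 13.84. The brightest single-symbol cluster of each symbol left 19938 genes.

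Groups and mice came from the labels. Light was compared within the 8 arrays of each tissue, and tissues and responses over all 16 arrays. Fits used lmFit and eBayes of limma 3.58.1 in R 4.3.3, at a Benjamini-Hochberg adjusted p under 0.05. Within a tissue, p-values measure the spread between mice. Over all 16 arrays they treat the 2 arrays of a mouse as independent, except where the mouse is a block. Python 3.11.15, pandas 2.3.3, numpy 2.4.6 and matplotlib 3.10.9 were also used, and fits were tested on simulated data.

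The members and lists were chosen with earlier results of these data known. Named were, in each list and tissue, the 2 called genes with the largest change (the largest change alone where none was called), Hspa1a, and the 3 genes most similar to each member called in both tissues. Both tissues of 1 mouse are paired by the labels' mouse identifier, and their deviations from group means correlated between -0.011 and 0.053. Alternatives were other scalings, priors, weights, clusters, a filter on dim genes, a block and left-out arrays.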

Additional observations from a re-analysis of the deposited data

Results flagged for a closer look

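Light acted differently in the 2 tissues, by a test of the difference itself, for 5 of the 9 measured heat shock genes. All of them responded lower in the RPE, where 8.05% of all genes were called lower and 5.16% higher. Of 11 immediate early genes, 8 were called lower in the same test and 0 higher. Among the heat shock genes, the RPE response minus the NSR response was -0.84 for Dnajb1 and -0.56 for Bag3 on the log2 scale. It was -0.35 for Hspa8, -0.30 for Dnaja1 and -0.26 for Hsp90aa1. With the mouse as a block, Hsp90aa1 (adjusted p = 0.072) and Dnaja1 (0.085) no longer passed. Nor did they without the RPE arrays that stood apart (0.0696 and 0.0775). The Hspa8 value is that of its brightest cluster. Its dimmest cluster gave -0.11 and was not called (adjusted p = 0.706). In the array's numbering that cluster stands close to those shared by Hspa8 and small nucleolar RNA genes. Which cluster reads Hspa8 itself was not tested.

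Single arrays far from the others of their group were found in 2 of 36 groups of 4 arrays, where chance alone marks about 1 group in 20. Hspb1 read 8.51 in light-exposed RPE of mouse 2, against 7.64 to 7.69 for the other mice of that group. That array also had the high corneal and glia marker medians, and their part in the Hspb1 value was not tested. Bag3 read 7.99 in control RPE of mouse 1, against 8.22 to 8.26 in the other control RPE arrays. The same array had an immediate early gene median of 8.08, against 8.83 to 9.02 on the others, and the part of this in the Bag3 value was not tested. Without it the light difference of Bag3 in the RPE was 0.35 (adjusted p = 0.0265).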

How the results depend on the processing

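Over 45 member results, 995 alternatives were run, and 17 of the 45 results changed under none. Of the alternatives, 934 kept direction and side of the threshold. With the direction kept, 27 lost a call and 20 gained one, and 14 changed sign. The 14 sign changes, all of values not called with the settings used above, were these. Light in the NSR became 0.003 for Hsp90aa1 and 0.005 for Dnaja1 with quantile normalization, and -0.008 and -0.188 for Hspa8 with the mean over its clusters and with its dimmest cluster, the last chosen after seeing the data. For the difference of responses, Hsph1 became 0.013 without control NSR of mouse 1 (-0.169 to 0.013 over the arrays left out) and 0.008 without the 3 RPE arrays that stood apart. Between control tissues, Hsp90aa1 became -0.118 with quantile normalization, Hspb8 -0.051, -0.015 and -0.013 without control RPE of mouse 4, control RPE of mouse 3 and control NSR of mouse 1 (-0.051 to 0.189 over the arrays left out), and Hsph1 0.017 without control NSR of mouse 2 (-0.159 to 0.017) and 0.079 with arrays centred over all clusters, a scaling also chosen after seeing the data. After light, Dnaja1 became -0.162 with quantile normalization and Hspa8 0.022 with that centring. With quantile normalization, the changed values of Hsp90aa1 between control tissues (adjusted p = 0.0473) and of Dnaja1 after light (0.0156) also passed the test.

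Total counts of calls moved over 1.5-fold in 4 cases. Without the 3 RPE arrays, light in the RPE called 2056 genes against 3510, in fewer samples, and 2 of the 9 members against 5. With the mouse as a block, 3 members differed in response against 5. Quantile normalization called 8 members between tissues after light against 5, and 3 of its 6 member calls between control tissues were higher, against 5 of 6. With centring over all clusters, 9625 genes were called higher between control tissues against 6140. The replicate number as a block for light, where numbers are shared by different mice whose deviations correlated between -0.017 and 0.066, called 2984 genes in the RPE and 2728 in the NSR, and Hspb8 in the RPE (adjusted p = 0.0319) and Hsph1 in the NSR (0.0416) passed. Apart from the differences named for Hsp90aa1 and Dnaja1, the mouse block changed no call of a member. The share of calls that were higher moved between 49.5% and 67.3% for light in the NSR, against 58.7%, and with centring over all clusters to 72.2% against 56.0% between control tissues and 73.0% against 59.3% after light. Causes were not tested. The values carry no background measure, so how far a gene stood above background is unknown.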

Other observations

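Another 2 clusters carried Hspa8 together with the small nucleolar RNA genes Snord14d and Snord14c, which lie in its introns, and were left out of the gene tests. Their signal cannot be assigned to any 1 of the 3 symbols. In the RPE the group mean was 10.11 after light for each, against 11.10 and 11.09 in controls, log2 differences of -0.99 and -0.98, and the light-exposed arrays lay below all control arrays in both. That was larger than the -0.28 of the brightest cluster of Hspa8 alone. In the NSR the means were 8.58 and 8.58 after light, against 8.21 and 8.18 in controls, and the groups overlapped. A further cluster, shared by Dnaja1 and Mir207, had a difference of -0.08 in the RPE, with overlapping groups, against -0.34 and -0.43 in the clusters of Dnaja1 alone. These clusters were singled out after their values were seen, and no test was made.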
